A study of Mus musculus with 15 samples.

Results

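The genes described are the mouse retinal dehydrogenases Aldh1a3, Aldh1a1, Aldh1a2 and Aldh1a7, the 4 entries of 24060 in a deposited islet count table whose symbol is one of these names. They were followed through all 15 libraries of the study, 3 in each of 5 groups, and all 4 passed the filter on low counts. The RNA came from pancreatic islets of FVB/NJ mice aged 9 to 10 weeks. The hIAPP_hCAST group carried a human IAPP transgene under the insulin II promoter together with a human CAST transgene under the insulin promoter. The hIAPP group carried the human IAPP transgene alone, the rIAPP group a rodent IAPP transgene under the insulin II promoter, and the hCAST group human CAST under the insulin II promoter, while the WT group carried no transgene. IAPP is islet amyloid polypeptide, a hormone released with insulin whose human form can aggregate into amyloid, and CAST is calpastatin, the inhibitor of the calpain proteases. An insulin promoter drives a transgene in beta cells, so the other cells of an islet preparation were not the target. Levels of the human transgenes were not analysed here.

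Retinal dehydrogenases carry out the last and irreversible step of retinoic acid synthesis, the oxidation of retinal (vitamin A aldehyde) to retinoic acid, which then acts through nuclear receptors. Aldh1a1, Aldh1a2 and Aldh1a3 are the classical enzymes of this step, and Aldh1a7 is a rodent paralog of Aldh1a1. In mouse pancreas, Aldh1a3 is known as a marker of failing, dedifferentiating beta cells in diabetes models, aldehyde dehydrogenase activity marks centroacinar and terminal duct cells, and Aldh1a2 is known from embryonic mesenchyme, where it supplies retinoic acid.

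Library depth ran between 28287011 and 40191501 counts. In WT 2, WT 3 and rIAPP 2 the genes Rn45s, Lars2 and Mir6236, on which ribosomal reads gather, took 94.3%, 68.9% and 67.7% of the counts, which left 1667190, 8796210 and 9510502 counts on all other genes, against 0.286% to 11.8% taken in the other libraries. Levels below are CPM, read counts relative to the library size after TMM scaling, which removes this share from the scale but not the coarser counting in those 3 libraries. The labelled tissue was checked against 12 beta-cell genes. None of them was at 0 counts in any library, and their summed level was 92078 to 106352 CPM in hIAPP_hCAST, 96485 to 106665 in hIAPP, 77955 to 87936 in rIAPP, 116686 to 126237 in hCAST and 137929 to 167890 in WT islets. The sum includes mouse Iapp, at 37129 ± 2202 CPM in rIAPP and 30270 ± 11395 CPM in WT islets (SD, n = 3). Whether reads of the rodent transgene were counted on Iapp was not tested. Ins1 averaged 19464 CPM in rIAPP and 52710 CPM in WT islets. The labels do not say that the libraries of a group came from separate animals, so p-values measure the spread between these libraries. The numbers in the sample titles run in 1 range for WT and hCAST, in another for hIAPP and hIAPP_hCAST, and apart for rIAPP. What lies behind these ranges cannot be told apart from the IAPP transgenes except in hCAST against WT, in hIAPP_hCAST against hIAPP and in the interaction of hIAPP and hCAST, which is the difference between these 2.

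On GRCm38, Aldh1a3 lies on the minus strand of chromosome 7 at 66390890 to 66427517 with 13 exons, and Aldh1a2 on the plus strand of chromosome 9 at 71215789 to 71296243 with 14 exons. Aldh1a1 and Aldh1a7 are neighbours on chromosome 19. Aldh1a1 spans 20492715 to 20643465 on the plus strand, Aldh1a7 spans 20692953 to 20727562 on the minus strand, and 49487 bases separate them. Their coding sequences were 91.6% identical, against 68.7% to 69.9% for every other pair of the 4 genes. Of the 2004 stretches of 50 bases in the Aldh1a1 transcript, 151 (7.53%) also occur in the Aldh1a7 transcript and none in Aldh1a2 or Aldh1a3, so the separate counts of Aldh1a1 and Aldh1a7 are uncertain to the extent that reads of one were counted on the other. The likeness extends upstream, and the windows are shown because both genes had their highest mean level in the same group. The 120 bases before the RefSeq start of each gene (GRCm38.p6, for Aldh1a1 the more downstream of its annotated starts) are printed 5′ to 3′ on the gene's own strand, from chr19:20601848-20601967 (plus) for Aldh1a1 and chr19:20727557-20727676 (minus) for Aldh1a7. Capitals mark runs of at least 8 bases that are identical in both.
Aldh1a1: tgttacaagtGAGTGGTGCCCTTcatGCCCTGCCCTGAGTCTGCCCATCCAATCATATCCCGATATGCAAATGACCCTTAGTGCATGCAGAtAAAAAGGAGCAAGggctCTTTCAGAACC
Aldh1a7: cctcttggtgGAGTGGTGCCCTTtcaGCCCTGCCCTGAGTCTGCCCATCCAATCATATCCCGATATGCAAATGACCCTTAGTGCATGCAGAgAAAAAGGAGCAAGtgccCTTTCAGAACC
These windows matched at 105 of 120 positions (87.5%). Both hold the octamer ATGCAAAT beginning 56 bases before the start and CCAAT beginning 72 bases before it. Searched on both strands of 250 bases before each RefSeq start, the octamer was in 1.6% of 32851 windows and CCAAT in 33.8%. The octamer was chosen after these windows had been read, and the Aldh1a2 window also holds it. No promoter window is shown for Aldh1a3.

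Aldh1a3 was highest in the islets with human IAPP alone. It stood at 45.3, 60.8 and 84.6 CPM in the 3 hIAPP libraries, against 13.3, 3.06 and 6.32 CPM in the 3 WT libraries. Every hIAPP library lay above every WT library, as in 17.9% of tested genes. The lowest hIAPP value was more than 3 times the highest WT value. The fitted level was 6.64-fold higher in hIAPP islets, a log2 fold change of 2.73 ± 0.44 (SE) with an adjusted p of 0.00352 in the edgeR quasi-likelihood test with Benjamini-Hochberg adjustment over 15460 genes. The WT values rest on 617, 7 and 82 counts. The call held on leaving out any 1 of the 15 libraries, with log2 fold changes between 2.47 and 3.50, while without all 3 ribosomal-rich libraries, which leaves a single WT library assumed to vary like the others, the value was 2.25 with an adjusted p of 0.0506. In bulk RNA, fewer or more cells of a type cannot be told apart from less or more RNA per cell.

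Aldh1a3 was also higher with the rodent transgene, though by less. The rIAPP libraries held 18.1, 36.8 and 23.4 CPM. All lay above the 13.3 CPM of the highest WT library, a separation that 21.7% of tested genes shared. The level was 2.66-fold higher (log2 fold change 1.41 ± 0.44, adjusted p 0.0381, edgeR quasi-likelihood test). Set directly against rIAPP, hIAPP islets had 2.49-fold more Aldh1a3 (log2 fold change 1.32 ± 0.38, adjusted p 0.0430, same test), again with every hIAPP library above every rIAPP library, as in 19.8% of tested genes. Both calls were close to the threshold. The rIAPP difference from WT missed it without hIAPP_hCAST 1, hIAPP_hCAST 3, hIAPP 2, rIAPP 2, rIAPP 3, hCAST 3, WT 2 or WT 3 (log2 fold changes 1.12 to 1.49, adjusted p 0.0508 to 0.135) and was 0.64 (adjusted p 0.456) without the 3 ribosomal-rich libraries, and the hIAPP difference from rIAPP missed it without hIAPP_hCAST 1, hIAPP 2, hIAPP 3, rIAPP 1, rIAPP 3 or hCAST 3 (1.05 to 1.35, adjusted p 0.0592 to 0.158).

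**Figure D1:**
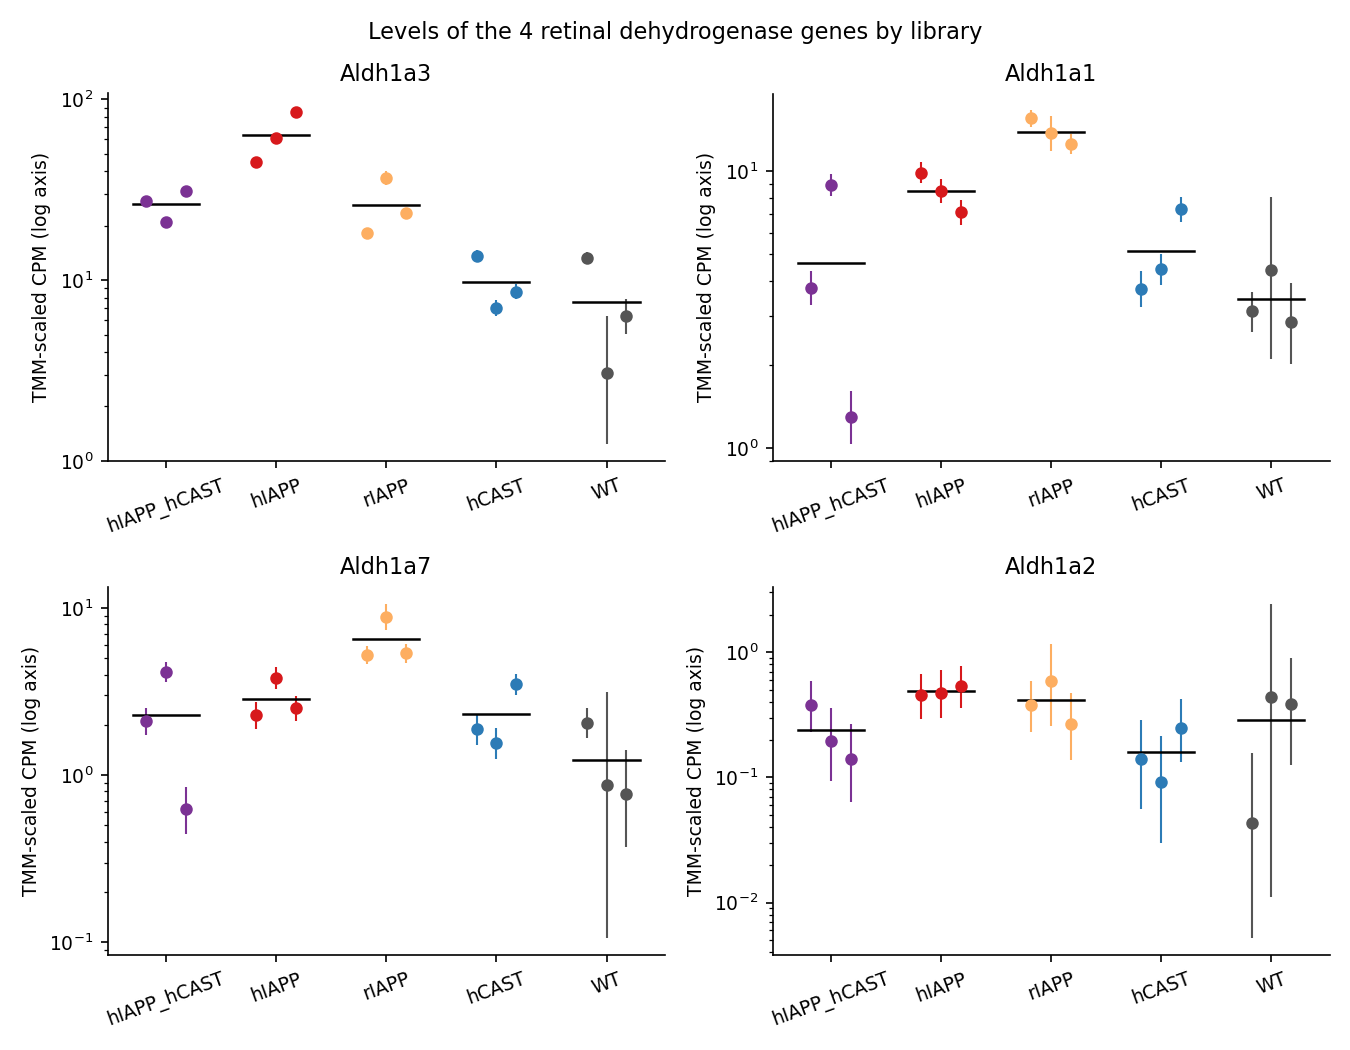
CPM (TMM-scaled, log axis) of each gene in every library of hIAPP_hCAST, hIAPP, rIAPP, hCAST and WT islets, 1 point per library with its exact 95% Poisson interval (counting error only) and a bar at the group mean. The 3 hIAPP libraries hold the highest Aldh1a3 values of all 15, and the 3 rIAPP libraries the highest Aldh1a1 and Aldh1a7 values.

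Calpastatin alone went with no detectable difference in Aldh1a3. The hCAST libraries held 13.6, 7.03 and 8.64 CPM, which overlap the WT values, and the log2 fold change against WT was 0.03 ± 0.43, with a negative sign under voom and without the 3 ribosomal-rich libraries. None of the 4 genes passed in hCAST against WT at an unadjusted p below 0.05 in edgeR, by DESeq2 or by voom, and 0.0194% of all tested genes were called.

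With both human transgenes, Aldh1a3 lay between the groups with either transgene alone. The hIAPP_hCAST libraries held 27.3, 20.9 and 31.1 CPM (26.5 ± 5.16, SD, n = 3), against means of 63.5 ± 19.8 CPM for hIAPP and 9.77 ± 3.44 CPM for hCAST islets (SD, n = 3 each). All 3 values lay below every hIAPP library and above every hCAST library, as 8.69% of tested genes lay below every hIAPP library and 6.64% above every hCAST library. Against hIAPP the log2 fold change was -1.26 ± 0.37 with an unadjusted p of 0.00592 and an adjusted p of 0.193, and against hCAST it was 1.44 ± 0.38 with an unadjusted p of 0.00325 and an adjusted p of 0.152 (edgeR quasi-likelihood test). Neither passed over all tested genes, in comparisons where 0.466% and 0.75% of genes were called. The first of these stays within 1 range of title numbers.

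The human IAPP difference in Aldh1a3 was 1.44 on the hCAST background and 2.73 on the WT background. The interaction, which is the first minus the second, was -1.29 ± 0.57 on the log2 scale (unadjusted p 0.0449, adjusted p 0.559, edgeR quasi-likelihood test). No gene of 15460 was called for it by edgeR, which had 1346 genes at an unadjusted p below 0.05, while DESeq2 called 48 and voom 0. Among the members, Aldh1a3 was the 1 gene with an unadjusted p below 0.05 for the interaction.

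Across the 5 groups the mean level of Aldh1a3 ran 63.5 CPM in hIAPP, 26.5 in hIAPP_hCAST, 26.1 ± 9.61 in rIAPP, 9.77 in hCAST and 7.55 ± 5.21 in WT islets (SD, n = 3). Of the neighbours in this order, rIAPP and hCAST were the pair whose difference passed the test (log2 fold change 1.39 ± 0.39, adjusted p 0.0265, edgeR quasi-likelihood test), and this call was lost without rIAPP 2, rIAPP 3, hCAST 2 or hCAST 3 (1.09 to 1.45, adjusted p 0.0529 to 0.102). The hIAPP_hCAST and rIAPP means could not be told apart beyond their spread (log2 fold change 0.05 ± 0.38). Between hIAPP and hCAST the log2 fold change was 2.70 ± 0.39 (adjusted p 0.00247, same test), called on leaving out any 1 library. Between hIAPP_hCAST and WT, where 3.48% of tested genes were called, it was 1.47 ± 0.43 with an adjusted p of 0.0895.

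Aldh1a1 had a different order and was highest with the rodent transgene. It stood at 15.5, 13.7 and 12.5 CPM in rIAPP, against 3.12, 4.38 and 2.85 CPM in WT islets, where they rest on 145, 10 and 37 counts. The lowest rIAPP library was above the highest library of any other group. How many of all tested genes share this was not counted, and 21.7% had every rIAPP library above every WT library. Aldh1a1 was 4.43-fold higher in rIAPP than in WT islets (log2 fold change 2.15 ± 0.61, adjusted p 0.0257, edgeR quasi-likelihood test). The call was lost without rIAPP 1, WT 1 or WT 3 (2.05 to 2.14, adjusted p 0.0629 to 0.113), and the adjusted p was 0.209 without the 3 ribosomal-rich libraries.

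In the hIAPP libraries Aldh1a1 stood at 9.86, 8.46 and 7.10 CPM, all above the WT libraries, as in 17.9% of tested genes. Its log2 fold change of 1.43 ± 0.60 did not pass, with an adjusted p of 0.149 in the same test. This difference was called in 5 of 11 other settings, namely voom, a fit of only the compared groups and the 3 FPKM scales, with log2 fold changes between 1.34 and 3.01 over the 11 and a lowest adjusted p of 0.000697. On 2 of these scales, the FPKM as deposited with 1 or 0.1 added, the median log2 fold change of all genes was itself 1.26 and 1.82. The hCAST libraries held 3.76, 4.43 and 7.29 CPM. The hIAPP_hCAST libraries were the most scattered, at 3.79, 8.92 and 1.29 CPM, the last being the lowest Aldh1a1 value of all libraries. Against rIAPP, hIAPP_hCAST islets had a log2 fold change of -1.59 ± 0.50 (adjusted p 0.0482, edgeR quasi-likelihood test), a call that 18.2% of all tested genes shared in that comparison. It held without hIAPP_hCAST 2 or hIAPP_hCAST 3 and was lost on leaving out any 1 of the other 13 libraries, with adjusted p up to 0.146 among the losses and log2 fold changes between -2.47 and -1.13 over all 15.

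Aldh1a7, the neighbour and near copy of Aldh1a1, followed the same pattern at lower counts. Its values were 5.25, 8.88 and 5.38 CPM in rIAPP, against 2.06, 0.876 and 0.771 CPM in WT islets, where they rest on 96, 2 and 10 counts. All rIAPP values were above those of the other 12 libraries, which again was not counted over all tested genes. The rIAPP level was 4.08-fold that of WT (log2 fold change 2.03 ± 0.66, adjusted p 0.0431, edgeR quasi-likelihood test), and the call was lost without hIAPP_hCAST 1, hIAPP 1, hIAPP 3, hCAST 1 or any 1 rIAPP or WT library (1.73 to 3.01, adjusted p 0.0535 to 0.148), and the value was 1.35 (adjusted p 0.397) without the 3 ribosomal-rich libraries. In the other groups Aldh1a7 stood at 2.10, 4.16 and 0.623 CPM in hIAPP_hCAST, at 2.29, 3.81 and 2.52 CPM in hIAPP and at 1.88, 1.56 and 3.50 CPM in hCAST islets. Against WT, hIAPP had a log2 fold change of 0.89 ± 0.66 with an adjusted p of 0.416. Set directly against rIAPP, hIAPP islets had log2 fold changes of -1.14 ± 0.54 for Aldh1a7 (adjusted p 0.217) and -0.72 ± 0.48 for Aldh1a1 (adjusted p 0.423, edgeR quasi-likelihood test for both), and neither passed. Both were called with voom (adjusted p 0.0296 for Aldh1a7 and 0.0358 for Aldh1a1) and with only the 2 compared groups fitted (0.0107 and 0.00109), and under none of the other 9 settings.

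Aldh1a2 was close to the limit of detection in every group. The hIAPP_hCAST libraries held 20, 10 and 9 counts of it, the hIAPP libraries 24, 22 and 29, the rIAPP libraries 20, 8 and 12, the hCAST libraries 7, 5 and 13, and the WT libraries 2, 1 and 5. The group means were 0.237, 0.488, 0.413, 0.160 and 0.289 CPM in that order. The hIAPP libraries held 0.453 to 0.536 CPM, above the 0.043 to 0.438 CPM of WT, a separation that 17.9% of tested genes shared. With 8 WT counts in all, the log2 fold change of 1.67 ± 0.71 did not pass (adjusted p 0.136). Against hCAST it was 1.60 ± 0.52 with an adjusted p of 0.0764 (edgeR quasi-likelihood test for both).

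Over the whole table, calls were not rare in hIAPP and rIAPP against WT, against hCAST and against each other. The members' calls are given beside these shares. In hIAPP against WT, 1 of 4 members was called (Aldh1a3), where 11.9% of the 15460 genes were called, 6.27% higher and 5.59% lower. All 4 members had hIAPP libraries above all WT libraries, as did 17.9% of tested genes. In rIAPP against WT, 3 of 4 members were called higher, where 23.3% of genes were called and 10.7% called higher. The same 3 members had every rIAPP library above every WT library, as did 21.7% of tested genes. In hIAPP against rIAPP 1 of 4 was called, against 13% of genes, in hIAPP against hCAST 1 of 4, against 7.19%, and in rIAPP against hCAST 1 of 4, against 22.4%. These counts depend on the tool. DESeq2 called 1 of 4 in hIAPP against rIAPP, 1 in hIAPP against hCAST and 2 in rIAPP against hCAST, and voom called 3, 3 and 4 in these comparisons. Against WT, DESeq2 called 1 of 4 in hIAPP and 3 in rIAPP, and voom called 2 in each. The comparisons with WT share its 3 libraries. The members were also more variable between libraries of a group than most genes, with a biological coefficient of variation of 0.360 for Aldh1a3, 0.425 for Aldh1a1, 0.305 for Aldh1a2 and 0.477 for Aldh1a7, against 0.132 for all tested genes in common. The trend over genes of like abundance was 0.102, 0.134, 0.273 and 0.172 in that order, so Aldh1a2 lay close to its trend.

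**Figure D2:**
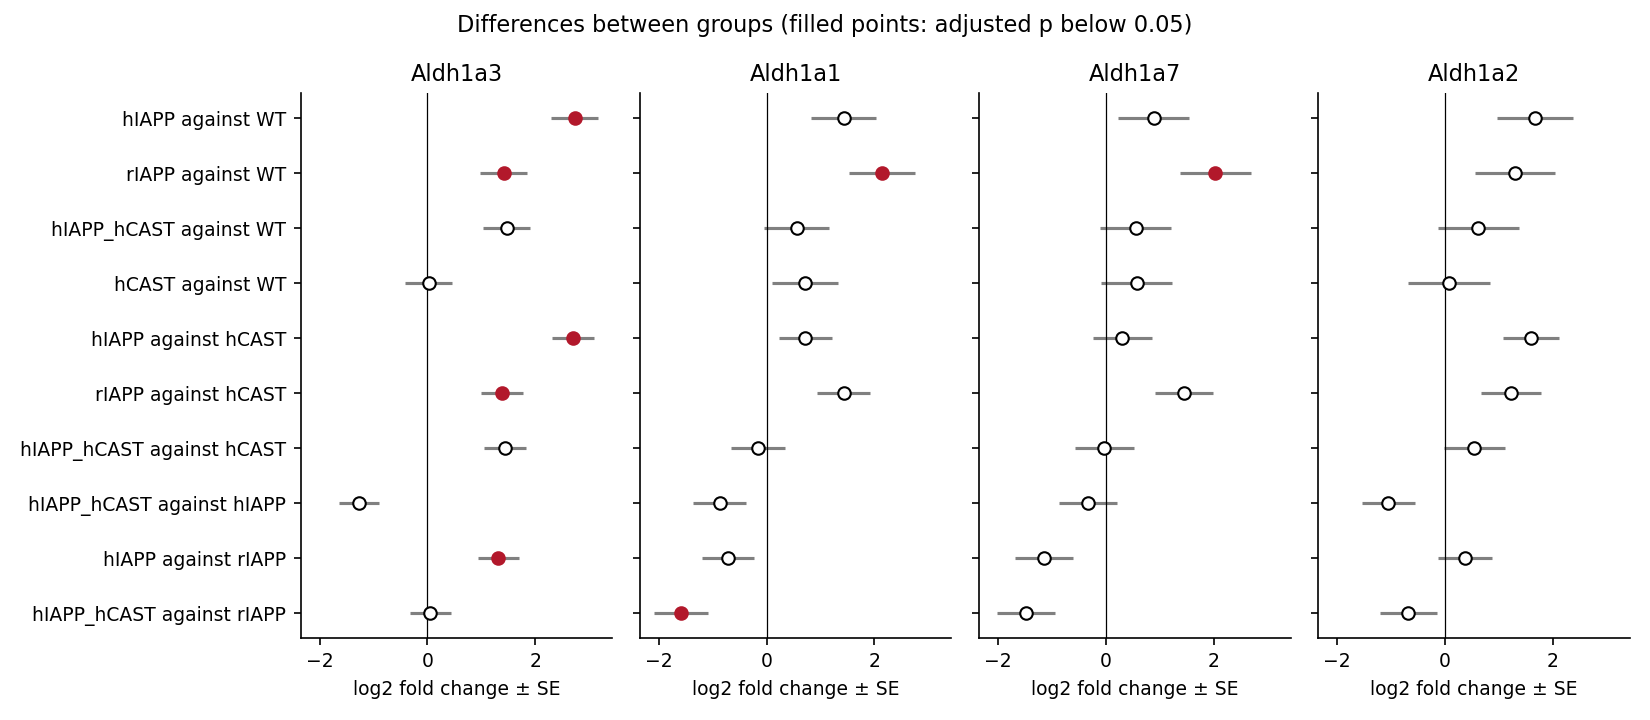
Log2 fold changes ± SE of the 4 genes in the 10 pairwise comparisons, first-named group over second, with filled points at an adjusted p below 0.05 (edgeR quasi-likelihood test). Aldh1a3 is filled in 5 comparisons, 3 of them with hIAPP as the first-named group, Aldh1a1 in 2 and Aldh1a7 in 1, all with rIAPP, and Aldh1a2 in none.

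Levels of different genes can be compared only per length, for which the deposited FPKM were rescaled to the same total in every library without the 3 ribosomal-rich genes. On this scale the 4 genes summed to 26.7 ± 0.783 in hIAPP_hCAST, 56.4 ± 14.8 in hIAPP, 40.6 ± 6.61 in rIAPP, 14.6 ± 2.99 in hCAST and 9.82 ± 2.92 in WT islets (SD, n = 3). Aldh1a3 made up more of that sum in every hIAPP library than in any rIAPP library. It was 70.4 ± 20.8% of it in hIAPP_hCAST and 75.3 ± 7.58% in hIAPP islets, against 42.2 ± 7.54% in rIAPP, 43.9 ± 13.5% in hCAST and 44.6 ± 18.3% in WT islets. The hIAPP_hCAST libraries, at 72.5%, 48.6% and 90.2%, overlapped the rIAPP libraries, at 34.0%, 48.9% and 43.6%. Aldh1a1 was 24.9%, 17.3% and 11.7% of the sum in the 3 hIAPP libraries, against 39.4 ± 9.11% in rIAPP and 39.8 ± 17.6% in WT islets. Aldh1a7 was 5.82 ± 1.80% in hIAPP, 17.4 ± 1.78% in rIAPP and 12.3 ± 2.92% in WT islets. Aldh1a2 made up 0.897% to 3.34% of the sum on average in the 5 groups. These shares are a description and were not tested.

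**Figure D3:**
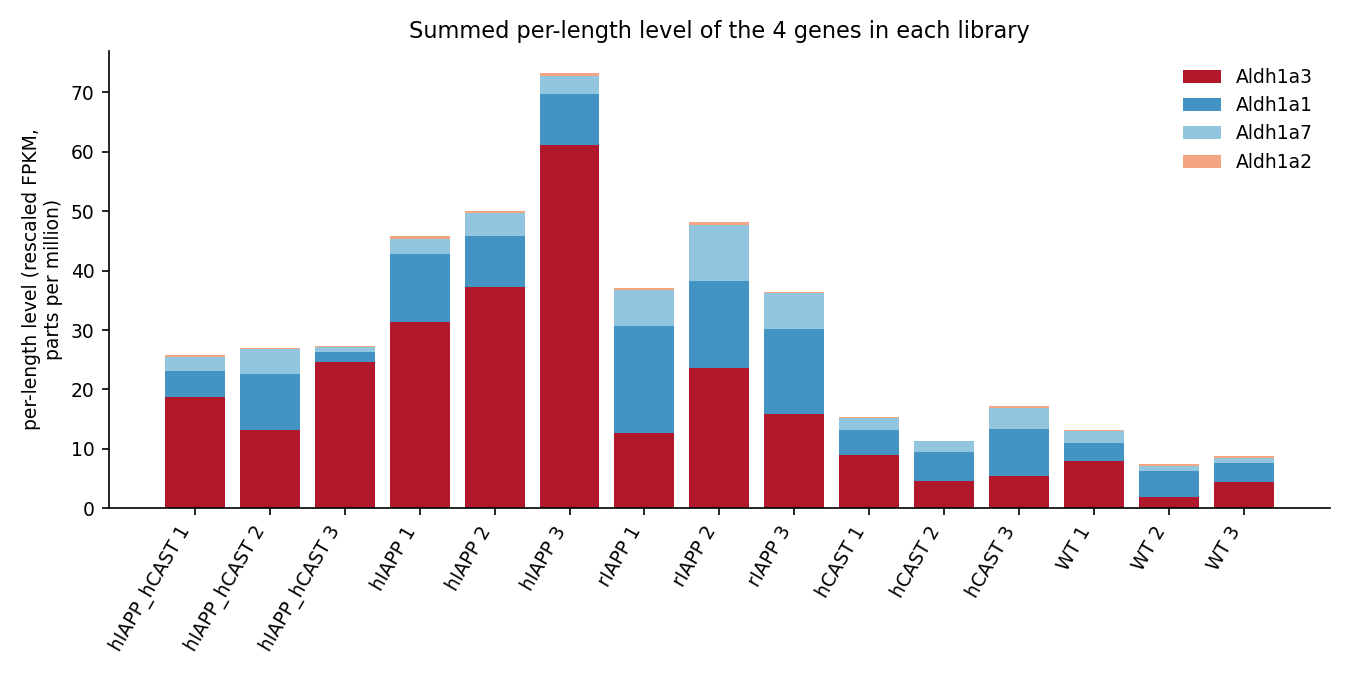
Per-length level (FPKM rescaled to the same total in every library) of the 4 genes stacked in each library, hIAPP_hCAST to WT from left to right. The hIAPP bars are the tallest on average, at 56.4, and consist mainly of Aldh1a3, while the rIAPP bars, at 40.6, hold similar amounts of Aldh1a3 and Aldh1a1.

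Libraries can also be used to describe which members vary together. Over the 15 libraries, Aldh1a1 and Aldh1a7 had a Pearson r of 0.886 on log2(CPM + 0.5), and 0.751 after removing group means. Aldh1a3 and Aldh1a1 had an r of 0.331 overall and -0.438 within groups. The points share depth and the ribosomal share named above, and the first pair may share reads.

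Among 12340 genes with a mean of at least 1 CPM, those most like Aldh1a3 over the 15 libraries were Dgat2, an enzyme of triglyceride synthesis (r 0.928), the tetraspanin gene Cd82 (0.928), Ppapdc1b (0.913), the nuclear lamina gene Lmna (0.907) and Ptafr, the receptor of platelet-activating factor (0.906). After removing group means, r was 0.628, 0.813, 0.686, 0.768 and 0.460 in that order. Dgat2 averaged 2.74 CPM in hIAPP_hCAST, 3.82 in hIAPP, 2.85 in rIAPP, 1.56 in hCAST and 1.45 in WT islets, the same top and bottom group as Aldh1a3. Cd82 averaged 35.4, 42.5, 39.8, 31.3 and 26.4 CPM in these groups. The genes most like Aldh1a1 were Bmp4, a growth factor (0.966), Srpx2 (0.963) and Pdgfra, a receptor typical of fibroblasts (0.961). Pdgfra averaged 4.11 CPM in hIAPP_hCAST, 8.43 in hIAPP, 13.8 in rIAPP, 4.22 in hCAST and 3.43 in WT islets. Those most like Aldh1a7 were Ggh, a lysosomal folate hydrolase (0.978), the amino acid transporter gene Slc38a5 (0.961) and Chst2 (0.959), and those most like Aldh1a2 were Zeb2 (0.921), Zfp36l1 (0.895) and Ptprg (0.887). For the genes named with Aldh1a1, Aldh1a7 and Aldh1a2, r after removing group means ran between 0.824 (Zfp36l1) and 0.969 (Ggh).

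Islet preparations carry other cells, and markers of several of them moved in the same comparisons. Acinar cells, the enzyme-secreting cells around the islets, had a summed level over 12 genes of 6322 to 92998 CPM in hIAPP_hCAST, 41417 to 90882 in hIAPP, 64874 to 90066 in rIAPP, 29857 to 62908 in hCAST and 10870 to 49592 in WT libraries. None of the 12 was called by edgeR against WT in hIAPP or rIAPP, or reached an unadjusted p below 0.05, and DESeq2 called 0, whereas voom called 11 of 12 in rIAPP against WT. Mesenchyme and stellate markers summed to 258 to 594 CPM in hIAPP_hCAST, 858 to 1053 in hIAPP, 887 to 1007 in rIAPP, 385 to 596 in hCAST and 291 to 447 in WT libraries. Of these 10 genes, 7 rose in hIAPP and 8 in rIAPP against WT, where 6.27% and 10.7% of all tested genes rose.

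Of 11 macrophage genes, 9 rose in hIAPP against WT, none rose and 1 fell in rIAPP against WT, and 9 were higher in hIAPP than in rIAPP. Their sum was 168 to 283 CPM in hIAPP_hCAST, 297 to 416 in hIAPP, 63.6 to 82.5 in rIAPP, 110 to 117 in hCAST and 72.2 to 107 in WT libraries. Of the 12 beta-cell genes, 9 fell in hIAPP and 11 in rIAPP against WT. Of 10 duct genes, 1 rose in hIAPP, and 2 rose and 1 fell in rIAPP. Over all tested genes, 11.9% were called in hIAPP against WT, 23.3% in rIAPP against WT and 13% in hIAPP against rIAPP. The duct calls lie near the shares against WT. Msln, the only mesothelial marker of 6 that was tested, stood at 202, 149 and 163 CPM in rIAPP, against 23.8, 16.2 and 14.7 CPM in WT islets. The part of these cell types in the differences of the 4 genes was not tested.

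Within groups, Aldh1a1 ranked the 3 libraries of a group in the same order as the mesenchyme and stellate sum in 4 of 5 groups (r 0.826 after removing group means), and its r with the acinar sum was 0.825. Aldh1a7 had an r of 0.932 with the acinar sum and the same order in 3 of 5 groups. Other lists came close, with an r of 0.770 for Aldh1a1 with Schwann cell genes and 0.810 for Aldh1a7 with duct genes. In hIAPP_hCAST 3, which had the lowest acinar and the lowest mesenchyme sum of all libraries (6322 and 258 CPM), Aldh1a1 and Aldh1a7 were at their lowest values, 1.29 and 0.623 CPM, while Aldh1a3 was at 31.1 CPM, the highest value of its group. Aldh1a3 shared the order of the mesenchyme sum in 0 of 5 groups (r -0.490) and of the acinar sum in 1 of 5 (r -0.0201). Over the 13 marker lists its lowest r was -0.729, with Schwann cell genes, and its highest 0.592, with alpha-cell genes. These pairings were picked out of 13 marker lists after their values were seen, the libraries number 15, and no test was made. The mesenchyme sum includes Pdgfra, named above for its likeness to Aldh1a1 in the same libraries, so these are not separate observations.

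**Figure D4:**
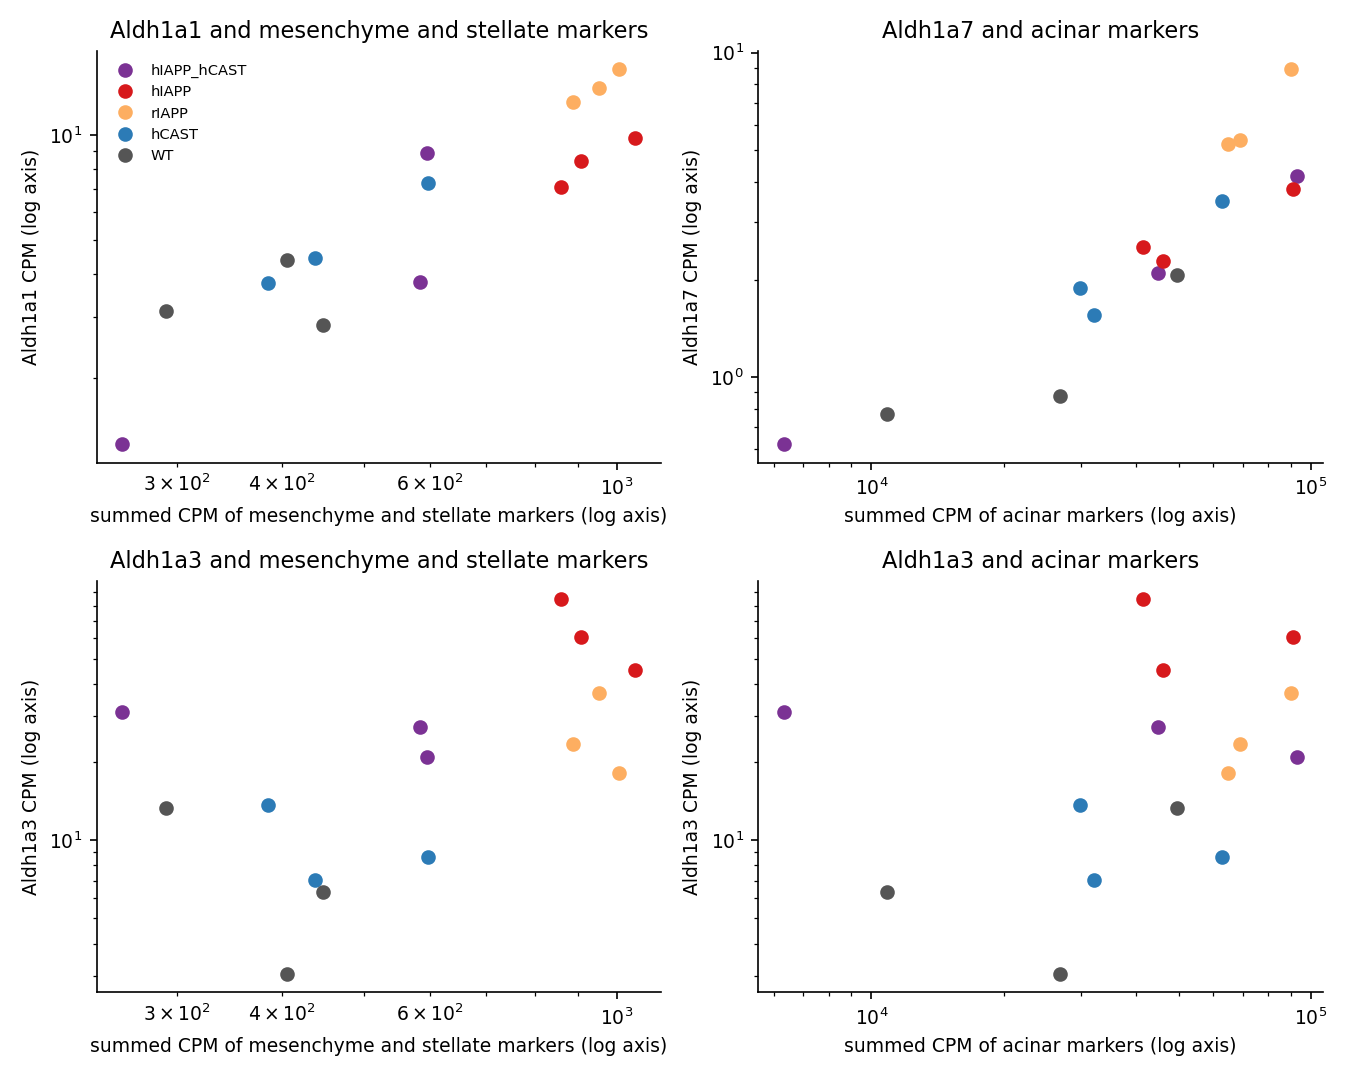
CPM of Aldh1a1, Aldh1a7 and Aldh1a3 against the summed CPM of marker genes of mesenchyme and stellate cells or of acinar cells (both log axes), 1 point per library, coloured by group. Points of 1 colour keep the same order for Aldh1a1 and mesenchyme markers in 4 of 5 groups, not in WT (r within groups 0.826). They do so for Aldh1a7 and acinar markers in 3 of 5 groups (0.932), and for Aldh1a3 in 0 and 1 of 5 (-0.490 and -0.0201).

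The rest of the retinoid pathway was described with lists ordered from uptake to response, for the comparisons with the IAPP transgenes. In uptake, binding and storage, 1 of 11 tested genes rose in hIAPP against WT and none fell, with a list median log2 fold change of 0.21 against 0.02 over all genes. Of all tested genes, 6.27% rose and 5.59% fell in this comparison. Lrp1, an endocytic receptor that takes up retinoid-bearing lipoprotein remnants, stood at 88.1, 84.8 and 93.3 CPM in hIAPP, against 39.2, 45.1 and 54.3 CPM in WT islets. Every hIAPP library lay above every WT library, as in 17.9% of tested genes. The log2 fold change was 0.95 ± 0.16 (adjusted p 0.00267, edgeR quasi-likelihood test).

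In rIAPP against WT, 1 of the 11 uptake genes (Bcmo1) rose and 1 (Ttr, the retinol carrier transthyretin, also abundant in alpha cells) fell, with a list median of 0.14 against 0.01 over all genes. Of all tested genes, 10.7% rose and 12.6% fell there. The fall of Ttr changed sign on the FPKM as deposited. Bcmo1, which cleaves beta-carotene to retinal, stood at 14.7, 12.7 and 13.0 CPM in rIAPP, against 5.78, 6.57 and 5.63 CPM in WT islets (log2 fold change 1.21 ± 0.20, adjusted p 0.000287, edgeR quasi-likelihood test). It was the 1 listed gene called in hIAPP_hCAST against hIAPP, at 2.90, 4.88 and 4.46 CPM, against 7.50, 7.11 and 7.68 CPM. There the log2 fold change was -0.86 ± 0.17 with an adjusted p of 0.0400, and the call was lost without hIAPP_hCAST 1, hCAST 2 or any 1 hIAPP, rIAPP or WT library (-0.89 to -0.67, adjusted p 0.0512 to 0.134).

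Of the enzymes that interconvert retinol and retinal, 4 of 22 tested genes fell and 1 rose in rIAPP islets (Rdh13, a retinol dehydrogenase family member, with the call lost without rIAPP 1 or WT 1, 0.43 to 0.54) against WT, with a list median of -0.17 against 0.01 over all genes, where 12.6% of genes fell and 10.7% rose. The 5 calls of 22 are close to the 23.3% of all genes called. Adh1, an alcohol dehydrogenase that can oxidise retinol, stood at 103, 78.7 and 107 CPM in rIAPP, against 352, 320 and 292 CPM in WT islets. All rIAPP libraries lay below every library of the other groups, which was not counted over all tested genes. The log2 fold change was -1.74 ± 0.12 (adjusted p 4.77e-08, edgeR quasi-likelihood test), and the call held on leaving out any 1 library or the 3 ribosomal-rich ones, while on the FPKM as deposited the value was at its weakest, -0.31 (adjusted p 0.756). In hIAPP islets Adh1 was at 276 ± 38.1 CPM (SD, n = 3), with a log2 fold change of -0.22 and an adjusted p of 0.227 against WT.

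The other 3 that fell in rIAPP were Akr1c12 (-1.23), Akr1c13 (-0.85) and Dhrs4 (-0.90). All changed sign on the FPKM as deposited, where the median of all genes itself shifted by 0.80. Their calls held on leaving out any 1 library and in 9 of 11 other settings each. Akr1c12 and Akr1c13 are aldo-keto reductases of similar sequence, so their separate counts are uncertain, and Dhrs4 is a reductase that can act on retinal. Dhrs4 was also the 1 listed gene called in hIAPP_hCAST against hCAST, at 16.7, 19.8 and 17.4 CPM, against 24.0, 25.1 and 29.2 CPM (log2 fold change -0.53 ± 0.11, adjusted p 0.0238, edgeR quasi-likelihood test), lost without hIAPP_hCAST 1, hCAST 2 or hCAST 3 (-0.56 to -0.45, adjusted p 0.0825 to 0.0925). In hIAPP against WT, 2 of 22 fell, Dhrs4 and Rdh12, the first lost without hIAPP 3 or WT 3 (-0.38 to -0.37, adjusted p 0.0647 to 0.0934) and the second without any 1 of 11 libraries (-1.12 to -0.87, adjusted p 0.0546 to 0.13), both of opposite sign on the FPKM as deposited. Neither call held without the 3 ribosomal-rich libraries, which leaves a single WT library. Rdh12 held 22, 15 and 25 counts in the hIAPP and 36, 2 and 11 counts in the WT libraries. Of all tested genes, 5.59% fell in hIAPP against WT.

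Of 13 receptors and cofactors, the corepressor gene Ncor1 and the coactivator gene Ncoa1 fell in hIAPP against WT and none rose. These 2 calls of 13, like the 3 of 13 in rIAPP against WT, lie near the 11.9% and 23.3% of all genes called in these comparisons. Ncor1 averaged 181 ± 9.21 CPM in hIAPP and 256 ± 25.0 CPM in WT islets (SD, n = 3), a log2 fold change of -0.49 ± 0.09 (adjusted p 0.00246, edgeR quasi-likelihood test), and both genes had the opposite sign on the FPKM as deposited. Both also fell in rIAPP against WT, again with the opposite sign on that scale, and Nrip1, another cofactor, rose there. No gene of a retinoic acid or retinoid X receptor was among these calls. Of 6 genes listed under breakdown, 2 could be tested, Cyp26b1 and Cyp1b1. Cyp26b1 was not called in hIAPP against WT (log2 fold change 0.77 ± 0.54, adjusted p 0.383, edgeR quasi-likelihood test). Whether Cyp1b1 acts in retinoic acid breakdown in these islets was not tested. Cyp1b1, a cytochrome that can oxidise retinoids, averaged 10.4 ± 2.04 CPM in hIAPP and 3.14 ± 1.46 CPM in WT islets (SD, n = 3), with a log2 fold change of 2.06 ± 0.56 (adjusted p 0.0355, same test) that lost its call without any 1 hIAPP library, WT 1 or WT 3 (1.80 to 2.14, adjusted p 0.0648 to 0.164). Without the 3 ribosomal-rich libraries, which leaves a single WT library, neither this call nor those of receptors and cofactors against WT held.

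Of 14 tested responsive genes, 1 rose (Tgm2) and 1 fell (Meis2, of opposite sign on the FPKM as deposited) in hIAPP, and 2 rose (Nrip1 and Rarres1) in rIAPP against WT, with list medians of 0.34 and 0.30. The 2 calls of 14 in hIAPP lie near the 11.9% over all genes, and the 2 of 14 in rIAPP below the 23.3%. These calls did not hold without the 3 ribosomal-rich libraries, which leaves a single WT library. Rarres1 stood at 9.59, 13.8 and 10.4 CPM in rIAPP, against 1.16, 0.438 and 0.463 CPM in WT islets, where they rest on 54, 1 and 6 counts. Every rIAPP library lay above every WT library, as in 21.7% of tested genes. The log2 fold change was 3.61 ± 0.85 (adjusted p 0.0101, edgeR quasi-likelihood test), and 3.09 without the 3 ribosomal-rich libraries. Among 14 other aldehyde dehydrogenases tested, 2 rose in hIAPP (Aldh3b1 and Aldh6a1), and 3 rose (these and Aldh3b2) and 1 fell (Aldh3a2, of opposite sign on the FPKM as deposited) in rIAPP against WT. These counts lie near the 11.9% and 23.3% of all genes called in the 2 comparisons. Aldh3b1 averaged 3.63 ± 0.302 CPM in hIAPP, 6.14 ± 0.718 CPM in rIAPP and 1.92 ± 0.231 CPM in WT islets (SD, n = 3). Its log2 fold change against WT was 0.99 ± 0.18 in hIAPP (adjusted p 0.00292) and 1.73 ± 0.18 in rIAPP (adjusted p 3.45e-06), and hIAPP stood at -0.75 ± 0.14 against rIAPP (adjusted p 0.00184, edgeR quasi-likelihood test for all), so that this gene, like Aldh1a1 and unlike Aldh1a3, had its highest mean in rIAPP islets.

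Between the transgenes, where 13% of all genes were called, hIAPP stood above rIAPP in 3 of 11 uptake genes and 4 of 22 interconverting genes, and below it in 1 of each. Adh1 was among these, with a log2 fold change of 1.52 ± 0.12 in hIAPP against rIAPP (adjusted p 2.59e-07, edgeR quasi-likelihood test), and so was Bcmo1, with -0.86 ± 0.17 (adjusted p 0.00236). Without the 3 ribosomal-rich libraries, hIAPP stood above rIAPP in 2 uptake and 2 interconverting genes and below it in 2 and 1. On leaving out 1 library, calls in hIAPP against rIAPP were lost for Lrat, which esterifies retinol for storage (without hIAPP 2, rIAPP 2 or rIAPP 3, 2.48 to 2.98), Ttr (without hIAPP 1 or rIAPP 2, both 0.43), Akr1c13 (without hIAPP 1, hIAPP 2 or rIAPP 1, 0.42 to 0.46) and Dhrs4 (without hIAPP 1 or rIAPP 2, 0.34 to 0.40). The Lrat call rests on 15, 24 and 12 counts in the hIAPP and 4, 0 and 0 counts in the rIAPP libraries. Several further calls named above were also lost on leaving out 1 library. In hIAPP against WT these were Tgm2 (without any 1 of 11 libraries, 0.96 to 1.31) and Aldh6a1 (without hIAPP 2 or WT 3, 0.36 to 0.39). In rIAPP against WT they were Ttr (without rIAPP 2 or WT 1, -0.40 to -0.23), Ncoa1 (without rIAPP 1, rIAPP 2 or WT 3, -0.24 to -0.20), Nrip1 (without rIAPP 2, rIAPP 3, WT 1 or WT 3, 0.25 to 0.30), Aldh6a1 (without WT 3, 0.38), Aldh3b2 (without hIAPP 3 or any 1 rIAPP or WT library, 1.66 to 2.75) and Aldh3a2 (without rIAPP 2, rIAPP 3, WT 1 or WT 2, -0.37 to -0.34). The Aldh3b2 call rests on 22, 7 and 20 counts in the rIAPP and 7, 0 and 1 counts in the WT libraries. The 40 calls of listed genes come from hIAPP and rIAPP against WT, hIAPP against rIAPP, and hIAPP_hCAST against hCAST and against hIAPP. Of these 40, 23 were lost without the 3 ribosomal-rich libraries and 21 on leaving out at least 1 single library. Those kept under every setting and every left-out library were Lrp1 and Aldh3b1 in hIAPP against WT and Aldh3b1 in rIAPP against WT. Adh1, Akr1c12, Akr1c13 and Dhrs4 in rIAPP against WT were called with every left-out library and in 9 of 11 other settings each. They missed only on the 2 scales of FPKM as deposited, which shift all genes. There the median of all genes in hIAPP or rIAPP against WT lay between 0.80 and 1.82. A fall against WT is therefore harder to keep under every setting than a rise.

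**Figure D5:**
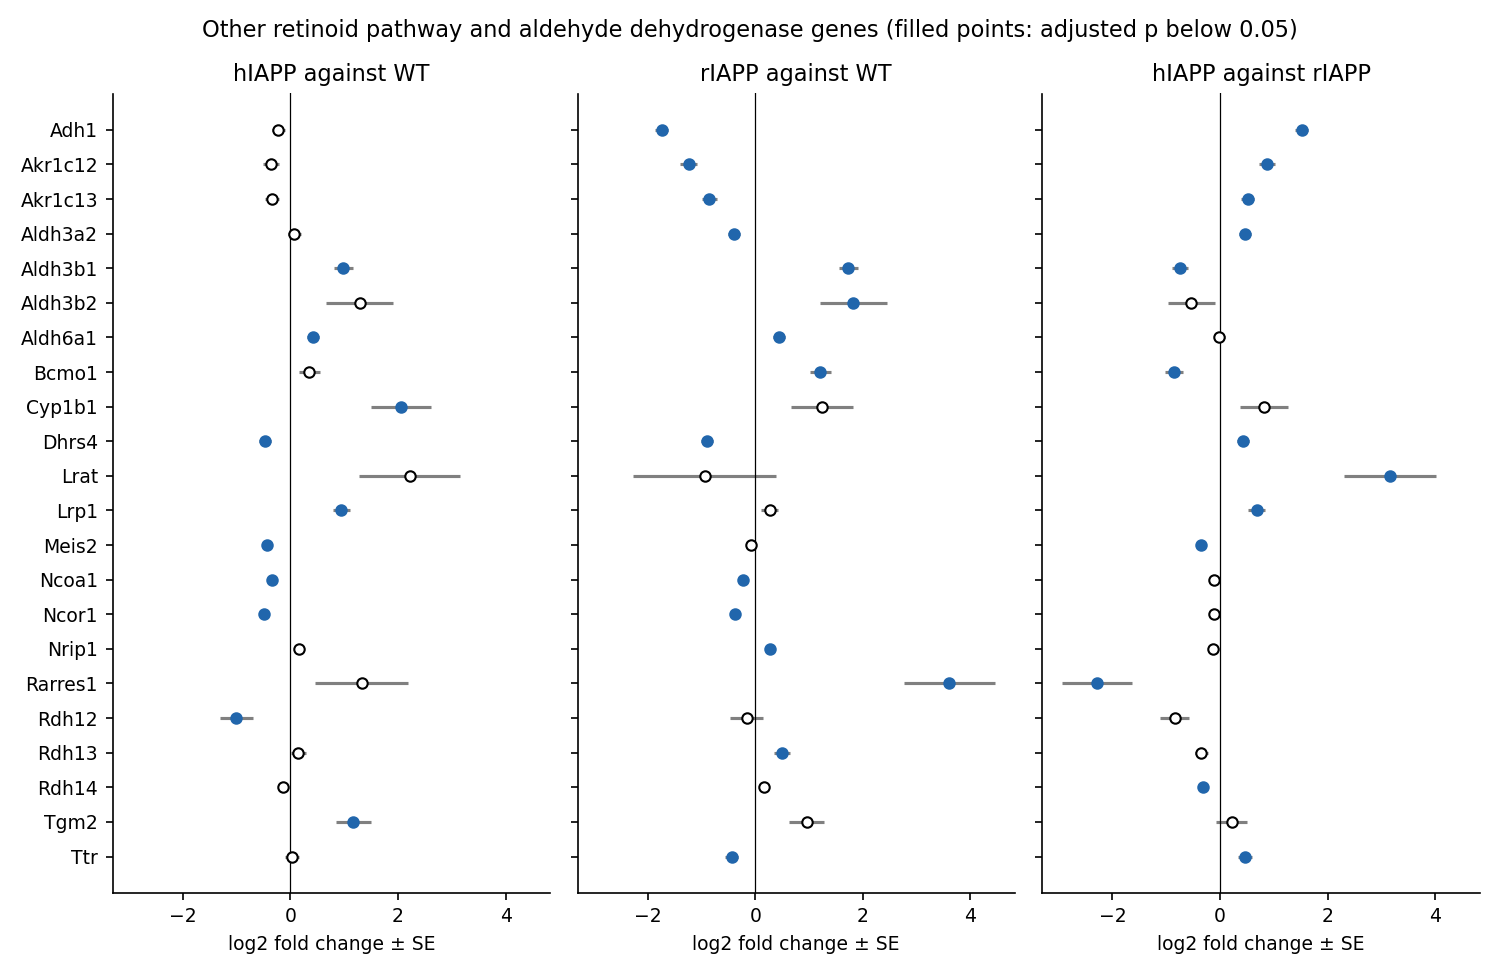
Log2 fold changes ± SE of the 22 other retinoid pathway and aldehyde dehydrogenase genes called in at least 1 of hIAPP against WT, rIAPP against WT and hIAPP against rIAPP, with filled points at an adjusted p below 0.05 (edgeR quasi-likelihood test). Adh1 lies at -1.74 in rIAPP against WT and at -0.22 in hIAPP against WT, and Aldh3b1 lies above 0 in both. Dhrs4, Ncoa1, Ncor1, Meis2, Rdh12, Rdh14, Akr1c12, Akr1c13, Aldh3a2 and Ttr change sign on the FPKM as deposited where they are filled below 0.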

How the data were processed

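Raw gene counts deposited by the authors were the main data, and the FPKM deposited by the authors served for per-length levels and as an alternative. The submitters' processing notes name STAR, HTSeq, GRCm38 and mm10. The annotation and strand setting, and how multiply matching reads were counted, are not stated in the sources used here. Columns were matched to libraries by title, and replicate numbers follow accession order. Counts were tested with the edgeR 4.0.16 quasi-likelihood test in R 4.3.3 (TMM, filterByExpr, robust, 1 coefficient per group, all 15 libraries), with Benjamini-Hochberg adjustment over 15460 genes in each of 11 contrasts and a call below 0.05. The steps were tested on simulated data. The standard error is the log2 fold change over the square root of F. Poisson intervals are exact at 95% and cover counting error only. Marker and pathway lists, and the members, were chosen with earlier results of these data known. Named genes were the members, the 5 (Aldh1a3) or 3 (other members) genes most correlated with each, and list genes that passed. Alternatives were DESeq2 1.42.0, limma 3.58.1 (voom with sample weights, and log2 FPKM + 1 or + 0.1), other scaling and filters, compared groups only, and left-out libraries. A further pathway gene is not reported here. For the listed genes these were added after seeing the data. Gene positions come from the GENCODE annotation of GRCm38, promoters from RefSeq.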

Additional observations from a re-analysis of the deposited data

How the results depend on the processing

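No paired analysis was possible because the labels give the groups no shared replicate numbers. For the 4 genes, 398 of 467 values under 11 other settings and 586 of 660 on leaving out 1 library kept direction and side of the threshold, and 5 and 20 changed sign. The cause of the changes was not tested. The FPKM as deposited were divided by totals that include the ribosomal-rich genes, and on them the median log2 fold change of all genes shifted to 1.26 in hIAPP against WT, 0.80 in rIAPP against WT and 0.40 in hIAPP against rIAPP with a pseudocount of 1, and to 1.82, 1.27 and 0.53 with 0.1. Calls over all genes in hIAPP against WT numbered 1833, with 383 without the 3 ribosomal-rich libraries and 12106 and 11891 on the 2 FPKM scales, and in rIAPP against WT 3599, with 1525, 897 and 680. For Aldh1a3, hIAPP_hCAST against WT passed with DESeq2 (log2 fold change 1.72), FPKM + 1 (2.45), FPKM + 0.1 (3.62) and rescaled FPKM (2.16), and hIAPP_hCAST against hCAST passed with voom (1.58). The Aldh1a3 call in rIAPP against WT was lost with voom (1.23), no filter (1.41), the compared groups only (1.38) and without the 3 libraries (0.64). Aldh1a3 in hIAPP against rIAPP lost its call with no filter (1.32), the compared groups (1.32), FPKM + 1 (1.71), FPKM + 0.1 (1.84) and rescaled FPKM (1.30), and in rIAPP against hCAST with the compared groups (1.38), without the 3 libraries (1.08), FPKM + 1 (0.71) and FPKM + 0.1 (0.83). In hIAPP against WT Aldh1a3 lost its call without the 3 libraries (2.25), in hIAPP against hCAST with FPKM + 0.1 (2.67), and hCAST against WT turned to -0.15 with voom and -0.45 without the 3 libraries and passed with FPKM + 0.1 (2.12).

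Leaving out 1 library, the Aldh1a3 log2 fold change ran between 2.47 and 3.50 in hIAPP against WT, 1.12 and 2.19 in rIAPP against WT, -0.29 and 0.79 in hCAST against WT, 1.25 and 1.76 in hIAPP_hCAST against hCAST, -1.46 and -1.001 in hIAPP_hCAST against hIAPP, 1.05 and 1.62 in hIAPP against rIAPP, -2.05 and -0.98 for the interaction, 1.24 and 2.24 in hIAPP_hCAST against WT, 2.44 and 3.02 in hIAPP against hCAST, 1.09 and 1.70 in rIAPP against hCAST, and -0.16 and 0.35 in hIAPP_hCAST against rIAPP. Uncalled values of the other members also changed sign. Aldh1a2 in hCAST against WT was -0.34 with voom, -0.38 on rescaled FPKM, -0.39 without hCAST 3 and -1.30 without WT 1. Aldh1a2 ran between -0.056 (without WT 1) and 2.48 in rIAPP against WT, -0.74 (without WT 1) and 1.80 in hIAPP_hCAST against WT, and -2.30 and 0.25 (without WT 1) for the interaction. Aldh1a7 ran between -0.79 and 0.44 (without hIAPP_hCAST 3) in hIAPP_hCAST against hCAST, where it was also 0.02 without hIAPP_hCAST 1, 0.40 without hCAST 3 and 0.20 with voom, between -1.09 and 0.13 (without hIAPP_hCAST 3) in hIAPP_hCAST against hIAPP, and between -0.22 (without hIAPP_hCAST 2) and 1.52 in hIAPP_hCAST against WT. Aldh1a1 ran between -1.04 and 0.30 (without hIAPP_hCAST 3) in hIAPP_hCAST against hCAST, where it was 0.17 without hCAST 3, and was -0.33 in hIAPP_hCAST against WT without hIAPP_hCAST 2.

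Falls of listed genes that changed sign on the FPKM as deposited (with + 1, then + 0.1) were, in hIAPP against WT, Rdh12 (0.087, 0.47), Dhrs4 (1.23, 1.50), Ncoa1 (1.29, 1.61), Ncor1 (1.30, 1.48) and Meis2 (1.27, 1.51), in rIAPP against WT Ttr (1.02, 1.03), Dhrs4 (0.36, 0.53), Akr1c12 (0.14, 0.18), Akr1c13 (0.45, 0.56), Ncoa1 (0.90, 1.16), Ncor1 (0.90, 1.05) and Aldh3a2 (0.87, 1.03), and in hIAPP against rIAPP Rdh14 (0.21, 0.24) and Meis2 (0.18, 0.20). Relative to the median of all genes, 7 of these 14 lay below it with + 1 and 14 with + 0.1, and none changed sign on rescaled FPKM. Depth limits Aldh1a2 and the WT values most, since WT 2 held 7 counts of Aldh1a3, 10 of Aldh1a1, 1 of Aldh1a2 and 2 of Aldh1a7.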
